A study of Homo sapiens with 6 samples.

Results

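TRiC, also called CCT, is the chaperonin of the eukaryotic cytosol, and the 8 genes that encode its ubiquitous subunits were taken by symbol from the 26255 gene symbols measured: TCP1, CCT2, CCT3, CCT4, CCT5, CCT6A, CCT7 and CCT8. All 8 were found and all 8 were among the 12203 genes that were abundant enough to be tested. In all, 6 libraries of poly(A) RNA from the human colorectal carcinoma line HCT116 were compared. There were 2 libraries of parent cells, 2 of cells given siLINC01534-1 and 2 of cells given siLINC01534-2, which are small interfering RNAs designed against the long noncoding RNA LINC01534. The study asked what silencing of LINC01534 changes in these cells. The siRNAs were delivered with a lipid reagent, of which no source says that parent cells received it, so the siRNA and the transfection cannot be told apart in any comparison with parent. None of the 6 libraries is labelled as coming from cells given a negative control siRNA, and the time between transfection and RNA extraction is not given in the sources used here. All groups are the same cell line, and nothing in the labels says that the 2 libraries of a group came from separate cultures, so p-values measure the spread between these libraries, which may be technical.

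TRiC is a double ring in which the paralogous subunits each hold a fixed place, so every ring needs 1 copy of each. Newly made proteins enter the open cavity, ATP hydrolysis closes a built-in lid over them, and they fold inside. Actins and tubulins depend on it, as do many proteins with WD40 repeats, among them regulators of the cell cycle, and the cochaperone prefoldin hands clients over to it. TCP1, CCT2, CCT4 and CCT5 bind ATP tightly and sit together on one side of the ring, while CCT3, CCT6A, CCT7 and CCT8 bind it weakly and form the opposite side. The results are given in that order.

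LINC01534 itself was close to the detection limit. It was listed at 0.285 and 0.571 FPKM in parent, at 0 and 0.283 with siLINC01534-1 and at 0.66 and 0.551 with siLINC01534-2, where FPKM are read numbers scaled by transcript length and by library size. Values this low allow no comparison between groups and do not check the labels, so the groups below are named by their labels alone. The epithelial markers EPCAM, KRT8, KRT18 and KRT19 lay between 199 and 1731 FPKM, CDH1 between 23.5 and 36.9, CDX2 between 6.89 and 9.89, and VIL1 at or below 0.0453. Markers of leukocytes, endothelium, fibroblasts and liver did not exceed 0.193 FPKM apart from COL1A1, which lay at 3.02 and 3.05 FPKM in parent, at 5.79 and 5.12 with siLINC01534-1 and at 4.25 and 3.79 with siLINC01534-2. Its part in the results was not tested. Between 16513 and 16903 symbols were above 0 in a library.

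The depth behind the subunits was high by an estimate. The files carry no read counts. A low value among single-transcript genes that were above 0 in few libraries was taken as the worth of a single read. This assumption, which was not checked, put the libraries at 8710000 to 10400000 reads. A subunit then rested on about 3000 reads (CCT4 in the first siLINC01534-1 library) to about 10200 reads (CCT3 in the second parent library). Counting alone would give an error of at most 1.84% of a value, which covers counting error only.

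The 8 genes are spread over 7 chromosomes (GRCh37): TCP1 on chr6:160199530-160210735 on the minus strand, CCT2 on chr12:69979206-69995350 on the plus strand, CCT3 on chr1:156278759-156337664 on the minus strand and CCT4 on chr2:62095220-62115806 on the minus strand. CCT5 lies on chr5:10250041-10266501, CCT6A on chr7:56119378-56131682 and CCT7 on chr2:73460548-73480149, all on the plus strand, and CCT8 on chr21:30428126-30446118 on the minus strand. Their main annotated transcripts have 11 exons (CCT5) to 16 exons (CCT2) and are 1847 nt (CCT7) to 3293 nt (CCT5) long, so no subunit is near the short lengths at which FPKM become unreliable.

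Several subunits share their start region with a gene that is read in the opposite direction. The outermost annotated starts lie 109 bp apart for TCP1 and MRPL18, 53 bp for CCT4 and COMMD1, 81 bp for CCT6A and PSPH, and 32 bp for CCT5 and FAM173B. Farther apart are those of CCT7 and PRADC1, at 181 bp. TSACC lies inside CCT3 on the other strand, with a start 192 bp from a start of CCT3. The values of all these partners are set beside those of the subunits below. The stretch between the starts is shown for the first 3 pairs. That before CCT5, not shown, is a run of 31 a. The outermost start of CCT5 (10250041) also lies before the start of its main transcript (10250392). Each stretch shown is GRCh37 sequence on the strand of the subunit, running towards its start, in lower case with CCAAT boxes and GGGCGG boxes of either strand in capitals.
TCP1, chr6:160210736-160210843, minus strand: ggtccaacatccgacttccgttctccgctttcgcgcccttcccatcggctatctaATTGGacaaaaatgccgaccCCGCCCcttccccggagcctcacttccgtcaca
CCT4, chr2:62115807-62115858, minus strand: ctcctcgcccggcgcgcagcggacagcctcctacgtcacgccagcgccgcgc
CCT6A, chr7:56119298-56119377, plus strand: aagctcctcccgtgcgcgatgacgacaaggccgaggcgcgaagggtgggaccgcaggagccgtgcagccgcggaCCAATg
The stretch before CCT4, of only 52 bases, holds none of the motifs searched, and neither does that before CCT5. How often stretches this short hold a motif was not counted.

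For CCT2, CCT3, CCT7 and CCT8, the last 120 bases before the RefSeq start (GRCh38.p14, a later build than that of the files) are shown so that their start regions can be compared. A further RefSeq start of CCT2 is not shown. Capitals mark the CCAAT box, the GGGCGG box and CCGGAA, a form of the ETS site, on either strand. Other forms of the ETS site were not searched and are not marked.
CCT2, chr12:69585339-69585458, plus strand: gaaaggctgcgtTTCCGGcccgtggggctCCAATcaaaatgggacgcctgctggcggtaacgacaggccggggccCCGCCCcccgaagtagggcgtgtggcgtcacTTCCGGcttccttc
CCT3, chr1:156338293-156338412, minus strand: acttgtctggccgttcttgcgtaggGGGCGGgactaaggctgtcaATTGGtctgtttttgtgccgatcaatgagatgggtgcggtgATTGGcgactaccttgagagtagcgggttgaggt
CCT7, chr2:73234188-73234307, plus strand: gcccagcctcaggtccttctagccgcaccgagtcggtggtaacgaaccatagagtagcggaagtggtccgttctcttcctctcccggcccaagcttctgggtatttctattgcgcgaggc
CCT8, chr21:29073649-29073768, minus strand: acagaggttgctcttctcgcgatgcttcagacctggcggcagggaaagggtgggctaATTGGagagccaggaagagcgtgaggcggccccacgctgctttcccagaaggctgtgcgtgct
RefSeq windows of 300 bases, from 250 before to 50 after a start, were given for 7 of the 8 genes (9 windows; not CCT6A) and searched on both strands beside all 35116 such windows. CCAAT, the box bound by NF-Y, was found in the windows of 4 of 7 subunits (TCP1, CCT2, CCT3 and CCT8) and in 34.6% of all windows. GGGCGG, bound by SP1, was found in 6 of the 9, from 5 subunits (TCP1, CCT2, CCT3, CCT7 and CCT8), and in 45.0% of all windows. CCGGAA, a form of the ETS site, was found in 2 of the 9 (CCT2 and CCT5) and in 17.2% of all windows. GCGCANGCG, bound by NRF1, was found in 2 of the 9 (CCT3 and CCT5) and in 7.52% of all windows. The heat shock element of 3 inverted units, held by 0.49% of all windows, was found in none of the 9 windows, and neither were TGACGTCA (1.85% of windows), TGATGNAAN (3.61%), AANATGGCG (3.19%) or the ER stress element (0.0769%), which overlaps CCAAT. These matches are descriptions of letters, not of binding. The CCT5 window belongs to a later start inside the gene and holds the beginning of its coding sequence. What was or was not found in it therefore does not describe the main start region of CCT5.

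In every library the 8 subunits were abundant, and their order was nearly fixed. In parent, CCT3 was highest at 564 ± 3.88 FPKM (SD, n = 2), followed by CCT7 at 464 ± 11, CCT2 at 377 ± 3.14, CCT8 at 351 ± 1.46, TCP1 at 338 ± 8.29, CCT6A at 277 ± 1.13, CCT5 at 250.0 ± 3.67 and CCT4 at 245 ± 5.21. These levels are per length, so they can be set beside each other. Neighbours in that order did not overlap between libraries except CCT5 and CCT4. The same order was found with siLINC01534-1, where CCT4 lay below CCT5 without overlap. With siLINC01534-2 the mean of CCT4 (209 FPKM) was above that of CCT5 (207 FPKM), and the 2 overlapped. The highest subunit was 2.3 times the lowest in parent, 3.19 times with siLINC01534-1 and 2.29 times with siLINC01534-2.

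**Figure D1:**
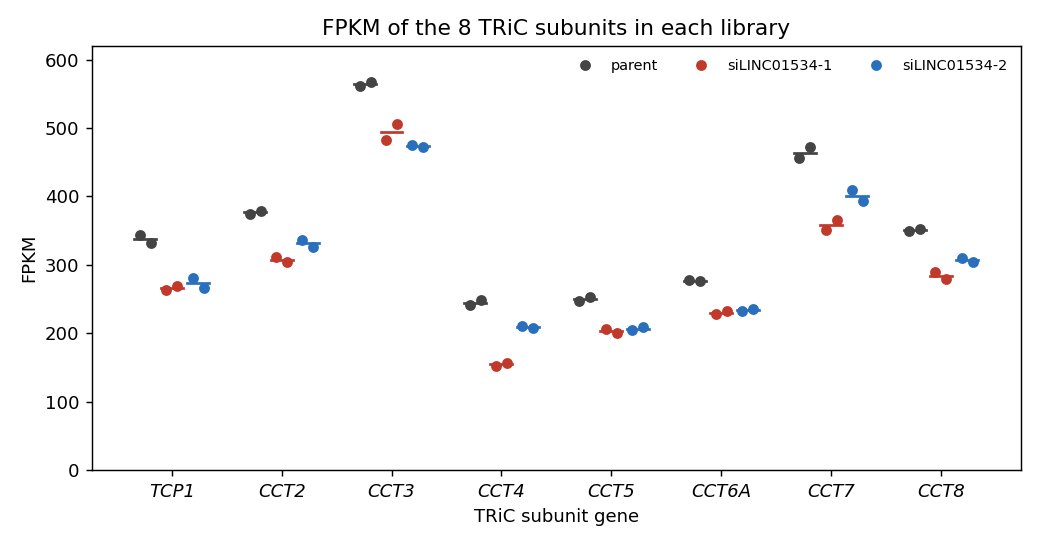
FPKM of each TRiC subunit (y axis, linear, from 0) in the 6 libraries, with 1 point per library and a bar at the mean of each group. For every subunit the 4 siRNA points lie below both parent points, and CCT4 with siLINC01534-1 (153 and 156 FPKM) stands farthest below its parent level (241 and 248 FPKM).

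All 8 subunits were lower with either siRNA than in parent. Summed over the 8, the FPKM was 2865 ± 18.9 in parent (SD, n = 2), 2298 ± 19.9 with siLINC01534-1, which is 19.8% lower, and 2438 ± 31.7 with siLINC01534-2, which is 14.9% lower. For each of the 8, all 4 siRNA libraries lay below both parent libraries, an arrangement found for 19.3% of all genes tested. In bulk RNA, fewer cells that express a gene and less RNA of it per cell cannot be told apart. Changes below are log2 fold changes with their standard error (SE) on the log2(FPKM + 1) scale, and adjusted p-values come from limma over all genes tested.

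On the side that binds ATP tightly, TCP1, the first subunit to be identified, was at 344 and 332 FPKM in parent, at 263 and 269 with siLINC01534-1 and at 281 and 267 with siLINC01534-2. The siRNA libraries overlapped each other and stayed clear of parent. TCP1 fell by 21.4% with siLINC01534-1 (log2 fold change -0.35, SE 0.0398, limma adjusted p = 0.00163) and by 19% with siLINC01534-2 (-0.30, SE 0.0398, adjusted p = 0.00721).

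CCT2, the beta subunit, was at 374.5 and 379 FPKM in parent, at 311 and 304 with siLINC01534-1 and at 337 and 327 with siLINC01534-2. The 3 groups did not overlap. CCT2 fell by 18.3% with siLINC01534-1 (log2 fold change -0.29, SE 0.0324, limma adjusted p = 0.00146) and by 11.9% with siLINC01534-2 (-0.18, SE 0.0324, adjusted p = 0.0163), the smallest change of a subunit in that comparison.

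CCT4, the delta subunit, was at 241 and 248 FPKM in parent, at 153 and 156 with siLINC01534-1 and at 210.3 and 208.5 with siLINC01534-2. The groups did not overlap, and the siLINC01534-1 libraries lay far below the other 4. CCT4 fell by 36.9% with siLINC01534-1 (log2 fold change -0.66, SE 0.0328, limma adjusted p = 0.000133), the largest change of a subunit, and by 14.4% with siLINC01534-2 (-0.22, SE 0.0328, adjusted p = 0.00962).

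CCT5, the epsilon subunit, which like CCT4 can assemble into rings by itself, was at 247 and 253 FPKM in parent, at 207 and 201 with siLINC01534-1 and at 204 and 209 with siLINC01534-2. The libraries of the 2 siRNAs interleaved. CCT5 fell by 18.4% (log2 fold change -0.29, SE 0.0336, limma adjusted p = 0.00161) and by 17.3% (-0.27, SE 0.0336, adjusted p = 0.00609).

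On the side that binds ATP weakly, CCT3, the gamma subunit and the most abundant of the 8, was at 561 and 567 FPKM in parent, at 482 and 505 with siLINC01534-1 and at 475 and 472 with siLINC01534-2. It was the one subunit that lay lower with siLINC01534-2 than with siLINC01534-1. CCT3 fell by 12.5% with siLINC01534-1 (log2 fold change -0.19, SE 0.0351, limma adjusted p = 0.00785) and by 16% with siLINC01534-2 (-0.25, SE 0.0351, adjusted p = 0.00856).

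CCT6A, the zeta subunit made in most tissues, was at 278 and 276 FPKM in parent, at 228 and 232 with siLINC01534-1 and at 233 and 235 with siLINC01534-2. Both siRNA groups lay together below parent. CCT6A fell by 16.9% (log2 fold change -0.27, SE 0.0293, limma adjusted p = 0.00142) and by 15.4% (-0.24, SE 0.0293, adjusted p = 0.00595). CCT6A can share reads with its near-identical pseudogenes CCT6P1 and CCT6P3, which were listed at up to 4.9 and 2.54 FPKM, so its level is uncertain. Its testis form CCT6B did not exceed 0.64 FPKM.

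CCT7, the eta subunit, was at 456 and 472 FPKM in parent, at 350.6 and 365 with siLINC01534-1 and at 409 and 393 with siLINC01534-2. The 3 groups did not overlap. CCT7 fell by 22.8% with siLINC01534-1 (log2 fold change -0.37, SE 0.0401, limma adjusted p = 0.00131) and by 13.5% with siLINC01534-2 (-0.21, SE 0.0401, adjusted p = 0.0203).

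CCT8, the theta subunit, was at 350.1 and 352 FPKM in parent, at 289.6 and 279 with siLINC01534-1 and at 309.9 and 304 with siLINC01534-2. Again the groups did not overlap. CCT8 fell by 19% with siLINC01534-1 (log2 fold change -0.30, SE 0.0332, limma adjusted p = 0.00138) and by 12.6% with siLINC01534-2 (-0.19, SE 0.0332, adjusted p = 0.0149).

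Counted together, 8 of 8 subunits were called lower with siLINC01534-1, where 24.5% of all genes tested were, and 8 of 8 with siLINC01534-2, where 11.8% were. Highly expressed genes were called more often, and the subunits are all highly expressed: among the 943 genes with a mean of at least 100 FPKM, a limit chosen after the values were seen, 37.0% were called lower with siLINC01534-1 and 25.5% with siLINC01534-2. The median log2 fold change of the 8 was -0.30 with siLINC01534-1 and -0.23 with siLINC01534-2, beside medians of 0.00031 and 0.0018 over all genes tested and of -0.041 and -0.047 over the 943. Both comparisons use the same parent libraries, so they are not independent of each other. With siLINC01534-2 the calls depended on single libraries. Without the first parent library, without the second parent library or without the second siLINC01534-2 library, where the lone remaining library is assumed to vary like the others, 3 of 8 stayed past the threshold, and without the first siLINC01534-2 library 6 did. CCT5 and CCT6A were called in each of these fits, every change stayed negative, and the adjusted p-values of the lost calls lay between 0.0517 and 0.099.

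**Figure D2:**
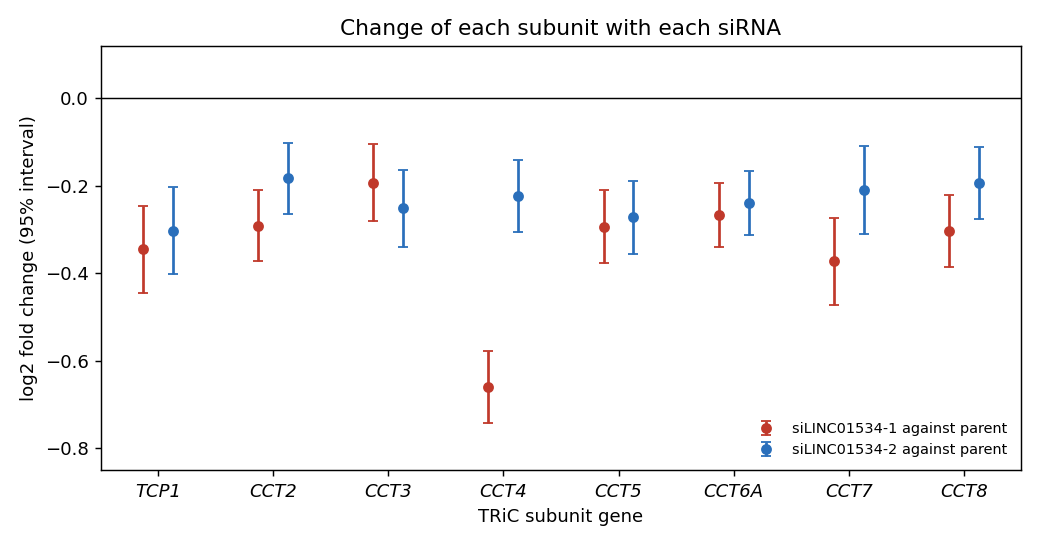
Log2 fold change of each TRiC subunit against parent (y axis) with siLINC01534-1 and with siLINC01534-2, with 95% intervals from limma. All 16 intervals lie below 0, and only for CCT4 do the intervals of the 2 siRNAs lie clear of each other (-0.74 to -0.58 and -0.31 to -0.14).

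For the mean of both siRNAs, 8 of 8 were called lower, beside 20.1% of all genes tested and 37.0% of the 943 highly expressed ones. The log2 fold changes ran from -0.44 for CCT4 (SE 0.0284, limma adjusted p = 0.000483) to -0.22 for CCT3 (SE 0.0304, adjusted p = 0.00422), with a median of -0.27. Where all 4 siRNA libraries were treated as 1 group, which makes any difference among siRNAs part of the spread, 3 of 8 (TCP1, CCT5 and CCT6A) stayed past the threshold. The median over the 8 was -0.24 when libraries were brought to the same upper quartile, and all 8 were then still called lower.

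The direct comparison of the siRNAs asked which subunits answered to one more than to the other. Of the 8, 4 were lower with siLINC01534-1 (CCT2, CCT4, CCT7 and CCT8) and none higher, while 22.3% of all genes tested were lower and 41.8% differed in either direction. Among the 943 genes with a mean of at least 100 FPKM, 495 differed, 279 of them lower with siLINC01534-1. CCT4 differed most, by -0.44 on the log2 scale (SE 0.0328, 95% interval -0.52 to -0.35, limma adjusted p = 0.000539), with both siLINC01534-1 libraries below both siLINC01534-2 libraries and a ratio of means of 0.738. CCT7 differed by -0.16 (95% interval -0.26 to -0.064, limma adjusted p = 0.0238), CCT8 by -0.11 (-0.19 to -0.027, adjusted p = 0.0449) and CCT2 by -0.11 (-0.19 to -0.027, adjusted p = 0.0444). No difference was called for TCP1 (-0.043, 95% interval -0.14 to 0.057), CCT5 (-0.021, -0.10 to 0.063), CCT6A (-0.026, -0.099 to 0.047) and CCT3 (0.059, -0.029 to 0.15), and differences within those intervals remain possible.

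The difference in CCT4 stayed past the threshold in all 13 alternative fits, with values from -0.45 to -0.39 and limma adjusted p-values from 3.23e-05 to 0.00803. Those of CCT2 and CCT8 were lost in each fit without 1 library, and that of CCT7 without either siLINC01534-1 library and without the first siLINC01534-2 library. After scaling to the same upper quartile only CCT4 was called, and the signs of TCP1, CCT5 and CCT6A turned, to 0.00056, 0.023 and 0.017. Median-of-ratios scaling, with factors of 1.003 to 1.008, hardly altered any value. Leaving out a parent library alters the spread but not the estimate between the siRNAs.

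The proportions among the subunits shifted mainly in CCT4 and CCT3. Each FPKM was divided by the geometric mean of the 8 in its library, a measure that does not depend on how libraries are scaled. CCT4 was at 0.703 and 0.718 of that mean in parent, at 0.564 and 0.573 with siLINC01534-1 and at 0.713 and 0.718 with siLINC01534-2. Its ratio was thus 20.0% lower with siLINC01534-1 and 0.723% higher with siLINC01534-2. CCT3 was at 1.64 in both parent libraries, at 1.78 and 1.85 with siLINC01534-1 and at 1.61 and 1.63 with siLINC01534-2, a change of 10.9% and of -1.15%. The other 6 moved by 5.31% or less with either siRNA. The product of the 8 ratios is fixed within a library, so a lower CCT4 raises the others. The tight-binding side made up 42.3% and 42.1% of the summed FPKM in the parent libraries, 40.9% and 40.2% in those given siLINC01534-1 and 42.0% and 41.9% in those given siLINC01534-2.

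**Figure D3:**
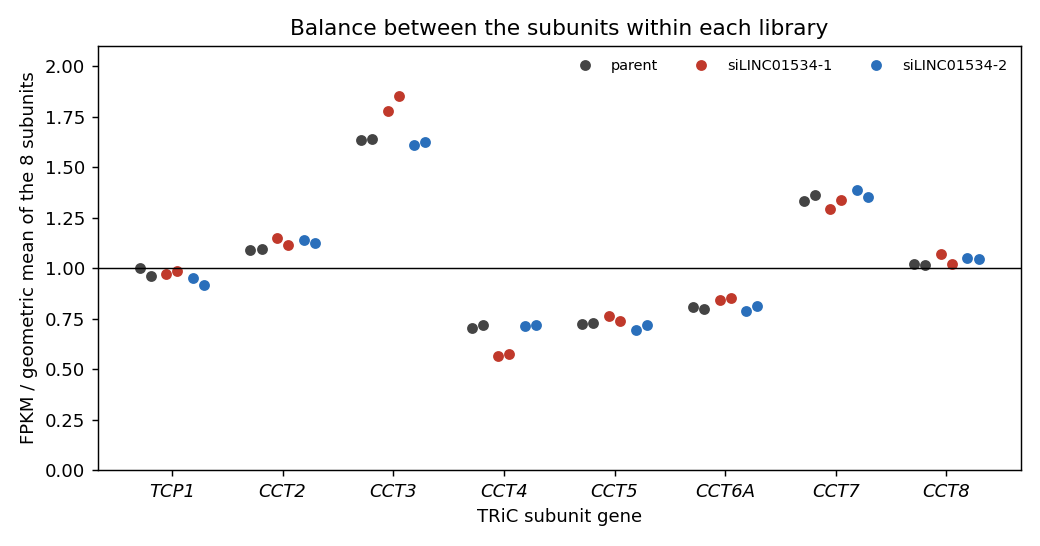
FPKM of each TRiC subunit divided by the geometric mean of the 8 subunits in the same library (y axis, linear, from 0), with 1 point per library. The siLINC01534-1 points leave the other 4 in CCT4 (0.564 and 0.573, below) and in CCT3 (1.78 and 1.85, above) and by less in CCT6A (0.842 and 0.85, above) and CCT5 (0.764 and 0.736, above).

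The common profile of the 8, as the mean of their log2(FPKM + 1) values centred on each gene's own mean, took values of 0.19 and 0.20 in the parent libraries, -0.15 and -0.14 in those given siLINC01534-1 and -0.032 and -0.054 in those given siLINC01534-2. Among 6891 genes with a mean of at least 10 FPKM, likeness to it was measured over the 6 libraries as the root mean square difference. The nearest genes outside the complex were ADH5 (0.0156), RUVBL1 (0.0203), CPSF6 (0.0214), MCMBP (0.0215) and NOL11 (0.0221). ADH5, a formaldehyde-clearing dehydrogenase, was at 76.5 and 77.5 FPKM in parent, at 59 and 59.6 with siLINC01534-1 and at 66 and 63.7 with siLINC01534-2. RUVBL1, an AAA+ ATPase of the R2TP cochaperone complex, was at 125 and 123, at 97.3 and 96.2 and at 106 and 107 FPKM. The subunits, which themselves make up the profile, ranked from 15 (CCT8) over 21 (CCT2), 33 (CCT7), 77 (CCT6A), 85 (TCP1) and 106 (CCT5) to 511 (CCT3) and 2451 (CCT4). This is a description, since the 6 libraries fall into 3 groups.

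Genes of the folding pathway around TRiC were examined in 8 lists for the mean of both siRNAs. Of their 79 genes tested, 38 were called lower, beside 20.1% of all genes, and 5 higher, beside 17.1%. Among the 943 genes with a mean of at least 100 FPKM, 349 were called lower and 197 higher. The 79 lie on both sides of that limit. The median was -0.16 on the log2 scale, against -0.27 for the subunits. The lists are counted here without a test of their own. With the 4 siRNA libraries as 1 group, an alternative chosen for these lists after seeing the data, 5 of the 79 were called in all.

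Upstream of TRiC, 2 of 6 subunits of prefoldin, the hexamer that delivers actin and tubulin chains, rose and none fell, with a median of 0.051. PFDN2 was at 206 and 214 FPKM in parent, at 268 and 278 with siLINC01534-1 and at 229 and 238 with siLINC01534-2 (log2 fold change 0.26, SE 0.0346, limma adjusted p = 0.00364), and PFDN5 also rose (0.16, SE 0.0461, adjusted p = 0.0423). The call of PFDN5 was lost without either parent library, the second siLINC01534-1 library or either siLINC01534-2 library. With siLINC01534-2 against parent PFDN5 was not called (0.12, adjusted p = 0.166). Of the 7 genes of the prefoldin-like complex around URI1, 3 fell and none rose, with a median of -0.17. RPAP3, its scaffold protein, fell by 21% (-0.32, adjusted p = 0.00268), and the ATPases RUVBL2 (-0.29, adjusted p = 0.0031) and RUVBL1 (-0.29, adjusted p = 0.00125) fell by 18.2% each. Of 4 tested cofactors of TRiC such as the phosducin-like proteins, TXNDC9 rose (0.24, adjusted p = 0.0303) and PDCD5, which binds TRiC, fell (-0.16, adjusted p = 0.00762), with a median of -0.037. Against parent, TXNDC9 was called with siLINC01534-2 (0.38, adjusted p = 0.0183) but not with siLINC01534-1 (0.096, adjusted p = 0.311). PDCD5 likewise was called with siLINC01534-2 (-0.23, adjusted p = 0.00733) but not with siLINC01534-1 (-0.090, adjusted p = 0.0575). PDCL2 was below the limit for testing. The counts for prefoldin and for the cofactors rest on few genes and changed when single libraries were left out, to 1 and to between 0 and 1 respectively in the fits that moved them: without either parent library or the second siLINC01534-1 library for both, without the first siLINC01534-2 library for prefoldin and without the second for the cofactors.

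Downstream of TRiC, 7 of 13 tested actin and tubulin genes fell and none rose, with a median of -0.19. ACTB, the cytoplasmic beta-actin, was at 2314 and 2368 FPKM in parent, at 1308 and 1278 with siLINC01534-1 and at 1849 and 1807 with siLINC01534-2 (log2 fold change -0.61, SE 0.0304, limma adjusted p = 0.000255). TUBB4B (-0.54, adjusted p = 0.00104), TUBA1B (-0.51, adjusted p = 0.00057) and TUBA1C (-0.38, adjusted p = 0.00102), the main tubulin genes beside TUBB, fell by 29.6%, 29.5% and 22.4%. Near-identical tubulin and actin paralogs can share reads, so these single values are uncertain. Of 6 tubulin cofactors, which join alpha and beta chains after TRiC releases them, TBCA moved in opposite directions. It was higher with siLINC01534-1 (0.24, adjusted p = 0.0168) and lower with siLINC01534-2 (-0.54, adjusted p = 0.0037) than in parent, which the mean hides. For the mean of both siRNAs TBCD fell (-0.39, SE 0.0512, adjusted p = 0.0038), by 23.4%, and the other 5 were not called, with a median of -0.031. Without the first siLINC01534-2 library 2 of 6 were called.

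Among 16 other clients, most of them WD40 proteins, 7 fell and 1 rose, with a median of -0.13. VHL was not called for the mean of both siRNAs. It was higher with siLINC01534-1 (0.34, limma adjusted p = 0.00507) and lower with siLINC01534-2 (-0.465, adjusted p = 0.0054) than in parent. PLK1, the mitotic polo-like kinase, was at 106 and 111 FPKM in parent, at 55.3 and 59.5 with siLINC01534-1 and at 77 and 74.8 with siLINC01534-2 (log2 fold change -0.71, SE 0.0421, limma adjusted p = 0.000405). WRAP53, the telomerase trafficking factor (-0.64, adjusted p = 0.00315), and CDC20, an activator of the anaphase-promoting complex (-0.45, adjusted p = 0.000483), fell by 34.9% and 26.2%. WRAP53 fell by 52.6% with siLINC01534-1 (-1.02, adjusted p = 0.00074) and was not called with siLINC01534-2 (-0.26, adjusted p = 0.1). STAT3, a transcription factor of cytokine signalling, rose (0.38, adjusted p = 0.00184), from 20.2 and 19.9 FPKM to 30.5 and 28.8 with siLINC01534-1 and 23 and 23.7 with siLINC01534-2.

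The cytosolic heat shock chaperones were the list that fell most often, 17 of 20 with a median of -0.36 on the log2 scale, and none rose. DNAJA1, an HSP70 cochaperone, was at 357 and 348 FPKM in parent, at 152 and 148 with siLINC01534-1 and at 326 and 332 with siLINC01534-2 (log2 fold change -0.66, SE 0.0289, limma adjusted p = 0.000173). With siLINC01534-2 against parent DNAJA1 was not called (-0.10, adjusted p = 0.0865). HSPA1B, the inducible HSP70 (-0.64, adjusted p = 0.000521), FKBP4, an HSP90 cochaperone (-0.53, adjusted p = 0.000333), and HSPH1, the HSP110 exchange factor (-0.50, adjusted p = 0.000746), fell by 36.1%, 30.6% and 29%. HSF1, the transcription factor of the heat shock response, was not called (0.082, adjusted p = 0.0903). HSPA1B shares nearly all its sequence with HSPA1A, so its level is uncertain.

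Of 7 tested genes related to TRiC by descent or by partnership with such a chaperonin, 2 fell and 1 rose, with a median of 0.13. HSPD1, the mitochondrial chaperonin HSP60, was at 1095 and 1062 FPKM in parent, at 299 and 298 with siLINC01534-1 and at 879 and 862 with siLINC01534-2 (log2 fold change -1.08, SE 0.028, limma adjusted p = 5.35e-05). It thus stood 72.4% below parent with siLINC01534-1 and 19.3% below with siLINC01534-2. HSPE1, its lid protein HSP10, which is read from a start region shared with HSPD1, fell by 21.5% and 22.1% (-0.35 for the mean, SE 0.0477, adjusted p = 0.00404). MKKS, a chaperonin-like protein that helps to assemble the BBSome of cilia, rose (0.21, SE 0.0643, adjusted p = 0.0487), a call lost with no filter on low values, with the replicate block and without any 1 library other than the first parent library, with adjusted p-values up to 0.187. With siLINC01534-2 against parent MKKS was not called (0.15, limma adjusted p = 0.211). CCT6B and CCT8L2 were below the limit for testing, and CCT8L1P was not found by symbol.

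**Figure D4:**
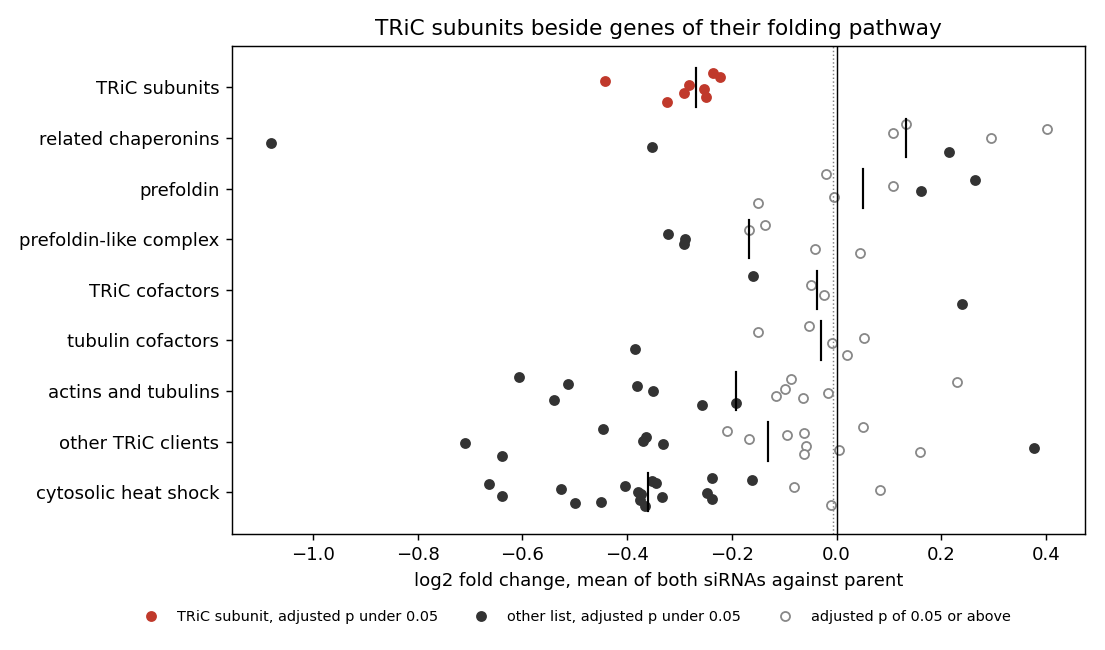
Log2 fold change of each tested gene (x axis), as the mean of both siRNAs against parent, for the TRiC subunits and 8 lists of genes from their pathway, with filled points for an adjusted p under 0.05, short vertical bars at the list medians and a dotted line at the median of all genes tested. The 8 subunits lie between -0.44 and -0.22, a range that holds the median of the cytosolic heat shock list (-0.36), while prefoldin lies around 0 (median 0.051).

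The partners of the shared start regions named above did not all move with the subunit beside them. MRPL18, a mitochondrial ribosomal protein gene beside TCP1, was at 136 and 135 FPKM in parent, at 81.2 and 91.5 with siLINC01534-1 and at 126 and 121 with siLINC01534-2, and was called lower with siLINC01534-1 (log2 fold change -0.65, limma adjusted p = 0.000855) but not with siLINC01534-2 (-0.13, adjusted p = 0.179). COMMD1, a copper and endosome regulator 53 bp from CCT4, was at 19.4 and 19.6 FPKM in parent, at 19.8 and 20.4 with siLINC01534-1 and at 22 and 25.2 with siLINC01534-2. Where CCT4 fell most, with siLINC01534-1, COMMD1 changed by 0.043 (95% interval up to 0.21, limma adjusted p = 0.643), and with siLINC01534-2 it rose (0.26, adjusted p = 0.048). PSPH, the phosphoserine phosphatase gene beside CCT6A, was at 21.7 and 23.3, at 25 and 24.6 and at 22.9 and 23.4 FPKM and was not called (0.14 with siLINC01534-1, adjusted p = 0.0653, and 0.041 with siLINC01534-2, adjusted p = 0.584). FAM173B, now named ATPSCKMT, the gene beside CCT5, was at 5.28 and 4.26, at 6.05 and 4.97 and at 4.07 and 3.6 FPKM and was not called either (0.17 with siLINC01534-1, adjusted p = 0.311, and -0.25 with siLINC01534-2, adjusted p = 0.217). PRADC1, beside CCT7, was not called (0.059 with siLINC01534-1, limma adjusted p = 0.594, and -0.18 with siLINC01534-2, adjusted p = 0.174). Nor was TSACC, inside CCT3 (0.13 with siLINC01534-1, limma adjusted p = 0.64, and -0.23 with siLINC01534-2, adjusted p = 0.481).

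MIR3913-2, 603 bp from CCT2, was listed at 0 in each library. The snoRNA genes SNORA20 and SNORA29 inside TCP1 and SNORA22 and SNORA15 inside CCT6A were each at 0 in at least 1 library and reached up to 63.1 FPKM in others, values that rest on a few reads at their length, and no change is read from them.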

How the data were processed

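RNA sequencing of 6 HCT116 libraries was analysed, 2 per group, with groups and replicate numbers taken from the labels. The labels name 2 libraries in a group where the methods text speaks of 3 cultures, and the RNA extraction kit differs between them. Per the labels and methods, the authors made strand-specific poly(A) libraries, sequenced them single-end, aligned the reads to hg19 with TopHat2 2.0.13, Bowtie2 2.2.3 and SAMtools 0.1.19, and deposited FPKM per gene symbol from Cufflinks 2.2.1 (Cuffnorm). The annotation is not given in the sources used here, and FPKM divide by transcript length, so levels can be compared between genes while very short genes are unreliable.

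The deposited FPKM were taken to log2(FPKM + 1), and the 12203 genes with a mean of at least 1 FPKM were tested with limma 3.58.1 in R 4.3.3 (a trend in the spread, 1 mean per group, Benjamini-Hochberg over all genes tested, two-sided, threshold 0.05). Contrasts set the mean of both siRNAs, and either siRNA alone, against parent and the 2 siRNAs against each other. The code was tested on simulated data. Percent changes are ratios of mean FPKM. Depth was estimated from single-transcript genes with 200 nt taken off their length, in Python 3.11.15. Positions are GENCODE on GRCh37, and promoters RefSeq on GRCh38.p14.

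All 8 subunits are given, with at most the 4 largest called changes of each pathway list, the 5 genes nearest in pattern and LINC01534. Start-region neighbours, close paralogs, HSF1, TBCA, VHL and BBS10 were added after their values were seen. The members and lists were chosen with earlier results of these data known, so no count over them is independent support. Alternatives were another pseudocount, filter and scaling, the fit without short RNA genes, a replicate block, each library left out, and both siRNAs as 1 group (for the pathway lists, chosen after seeing the data). No library was left out of the reported values. The files hold no fold change or p-value columns.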

Additional observations from a re-analysis of the deposited data

Results flagged for a closer look

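The effect against parent differed between the 2 siRNAs, by limma's test of siLINC01534-1 against siLINC01534-2, for 4 subunits and 20 named genes of the pathway. All values here are log2 differences, siLINC01534-1 minus siLINC01534-2, with limma adjusted p-values over all genes tested, and 41.8% of all genes tested differed in this way. Of the 943 genes with a mean of at least 100 FPKM, 495 did. Lower with siLINC01534-1 were the subunits CCT4 (-0.44, adjusted p = 0.000539), CCT7 (-0.16, adjusted p = 0.0238), CCT8 (-0.11, adjusted p = 0.0449) and CCT2 (-0.11, adjusted p = 0.0444).

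Of all 79 pathway genes tested, 51 differed, 31 lower and 20 higher with siLINC01534-1. The 20 named were drawn from those called for the mean of both siRNAs, which misses genes moved in opposite directions. VHL (0.81, adjusted p = 0.000406), TBCA (0.79, adjusted p = 0.000444) and BBS10 (0.76, adjusted p = 0.00106), all higher with siLINC01534-1, are not among them. Of the 20 named, 15 were lower with siLINC01534-1: HSPD1 (-1.54, adjusted p = 2.26e-05), DNAJA1 (-1.13, adjusted p = 5.87e-05), WRAP53 (-0.76, adjusted p = 0.00244), TUBB4B (-0.63, adjusted p = 0.00081) and ACTB (-0.50, adjusted p = 0.000444) by the widest margins. By smaller margins they were TUBA1C (-0.45, adjusted p = 0.000783), PLK1 (-0.40, adjusted p = 0.00245), HSPH1 (-0.36, adjusted p = 0.00244), CDC20 (-0.35, adjusted p = 0.00106), TUBA1B (-0.32, adjusted p = 0.0027), TXNDC9 (-0.29, adjusted p = 0.0243), HSPA1B (-0.21, adjusted p = 0.0199), RUVBL2 (-0.17, adjusted p = 0.0228), FKBP4 (-0.17, adjusted p = 0.0112) and RUVBL1 (-0.13, adjusted p = 0.0205). The other 5 of the 20 named were higher with siLINC01534-1: STAT3 (0.33, adjusted p = 0.00361), TBCD (0.32, adjusted p = 0.00992), PFDN2 (0.23, adjusted p = 0.00814), RPAP3 (0.15, adjusted p = 0.0459) and PDCD5 (0.14, adjusted p = 0.0167). STAT3 and PFDN2 rose against parent for the mean of both siRNAs and rose more with siLINC01534-1, while TBCD, RPAP3 and PDCD5 fell and fell more with siLINC01534-2.

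Of the 20 pathway genes, 11 kept this call in each of the 6 fits without 1 library. The other 9 lost it in some, with adjusted p-values up to 0.166. PFDN2 and TBCD lost it without the second siLINC01534-1 library, and FKBP4 without the first siLINC01534-1 or the first siLINC01534-2 library. RUVBL2 lost it without either siLINC01534-1 library or the first siLINC01534-2 library, and PDCD5 without either siLINC01534-1 library or the second siLINC01534-2 library. RUVBL1 and HSPA1B lost it without any 1 of the 4 siRNA libraries, TXNDC9 without either parent library, the first siLINC01534-1 or the second siLINC01534-2 library, and RPAP3 in all 6. The calls of CCT2 and CCT8 were lost in each of the 6 and that of CCT7 in 3. No explanation of these differences was tested.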

How the results depend on the processing

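The calls of the subunits against parent kept their side of the threshold for siLINC01534-1 in each alternative tried. For siLINC01534-2 the number called ranged from 3 to 8 over the fits without 1 library each and was 8 in every other alternative. With the 4 siRNA libraries as 1 group, 3 of 8 were called for the mean of both siRNAs, with limma adjusted p-values of 0.0766 (CCT3), 0.0896 (CCT8), 0.0966 (CCT2), 0.106 (CCT7) and 0.191 (CCT4) for the others, because the difference between the siRNAs then counts as spread. Scaling to the same upper quartile, with factors of 0.978 for siLINC01534-1, 1.01 for the other groups, moved the median of the 8 to -0.24 for the mean of both siRNAs, -0.25 for siLINC01534-1 and -0.032 between the siRNAs. Leaving out 1 library each gave medians from -0.32 to -0.28 for siLINC01534-1 and from -0.10 to -0.062 between the siRNAs.

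Between the siRNAs, where 4 of 8 were called, the number was 2 with no filter on low values, 1 with upper-quartile scaling and 1 to 2 without 1 library each. CCT4 was called each time. The signs of TCP1 (0.00056), CCT5 (0.023) and CCT6A (0.017) turned with upper-quartile scaling, and that of CCT5 ranged from -0.042 to 0.00083 without 1 library each. The cause was not tested.

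Same-numbered libraries deviated together only weakly (correlations of 0.114, 0.027 and -0.0456), and nothing says that a number marks a shared day, so the numbers were not taken as pairs. With the replicate block, 2 of 8 subunits were called between the siRNAs (adjusted p = 0.0837 for CCT2 and 0.0792 for CCT8), and the block changed no other call of a subunit.

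Of the pathway lists, the number called for the mean of both siRNAs was 1 with no filter on low values for prefoldin and for the cofactors of TRiC (from 2), and 2 without short RNA genes for the tubulin cofactors (from 1). Without 1 library each, it ranged from 1 to 2 for prefoldin, 0 to 2 for the cofactors of TRiC and 1 to 2 for the tubulin cofactors. With the 4 siRNA libraries as 1 group, an alternative chosen for the lists after seeing the data, it was 1 for the genes related to TRiC (from 3), 1 for actins and tubulins (from 7), 3 for the heat shock chaperones (from 17) and 0 for prefoldin (from 2), for the prefoldin-like complex (from 3), for the cofactors of TRiC (from 2), for the tubulin cofactors (from 1) and for the other clients (from 8). In the other alternatives run for them, the lists not named before stayed within 1.5 times their count. By the depth estimate, counting error was small for the subunits, but 2 libraries per group leave 3 residual degrees of freedom, and LINC01534 is too low to be compared.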
